A study of Homo sapiens with 2 samples.

Results

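The mevalonate arm of cholesterol synthesis is described here by 9 enzyme genes, HMGCS1, MVK, PMVK, MVD, IDI1, FDPS, FDFT1, SQLE and LSS, listed in pathway order from acetoacetyl-CoA to lanosterol. The genes were taken by symbol from a table of read counts with 46865 loci, and each of the 9 symbols matched exactly 1 locus. Membership goes by pathway, with no threshold on a measured value. It does not hold every enzyme of the arm.

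The arm builds isoprenoids in the cytosol and endoplasmic reticulum from acetyl-CoA. HMG-CoA synthase starts it, kinases and a decarboxylase turn mevalonate into isopentenyl diphosphate, and a prenyltransferase joins such units into farnesyl diphosphate, from which protein prenyl groups, dolichol and ubiquinone side chains also derive. Squalene synthase, squalene epoxidase and lanosterol synthase then commit farnesyl diphosphate to sterols. Transcription of these genes is classically driven by the factor SREBP2, which is held in the endoplasmic reticulum when sterols are plentiful, and which acts with NF-Y and Sp1 at sterol-responsive promoters. In macrophages the same sterol pool is also filled by uptake of lipoproteins and emptied by export through ABC transporters.

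RNA was sequenced from 1 library labelled PNU282987 and 1 library labelled Control. Both came from primitive macrophages, the embryonic macrophage type from which microglia descend, made over 30 days from the wild-type human induced pluripotent stem cell line 1231A3. PNU282987 fully activates the nicotinic acetylcholine receptor of type α7, and the protocol, attached in the same words to both libraries, describes its use at 100 µM for 12 hours. A vehicle for Control is not stated. Titles and library names place each library in its group, while for the PNU282987 library the field for treatment reads amiroid β, an entry at odds with its title. With 1 library per group no difference below has a replicate check, no p-value is given, and each interval is a 95% interval of counting error alone. The totals were 36134391 reads in PNU282987 and 39316475 reads in Control. All 13 macrophage markers examined exceeded a mean of 1 CPM, the read count scaled to a common library total, with summed levels of 6275 CPM in PNU282987 and 6952 CPM in Control. Of these, 5 had a ratio above 1 and 8 below, and 2 were more than 2-fold higher, CD14, a coreceptor for lipopolysaccharide, at 539 CPM in PNU282987 and 96.3 CPM in Control, and ITGAM, an integrin chain, at 473 CPM in PNU282987 and 138 CPM in Control. Among all 14269 loci whose mean reached 1 CPM, 2.96% were at least 2-fold higher with an interval above equality. For at least 2-fold lower with an interval below equality the share was 2.81%. In such bulk RNA, fewer cells of one type and less RNA per cell cannot be told apart.

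Reads of the arm were more abundant in the PNU282987 library, with the difference concentrated in part of its steps. Summed over the 9 genes, the level was 857 CPM (847 to 866) in PNU282987 and 582 CPM (574 to 589) in Control, a ratio of 1.47 (1.45 to 1.5). HMGCS1, the cytosolic HMG-CoA synthase, had the greatest ratio, and without it the other 8 genes summed to 668 CPM in PNU282987 and 503 CPM in Control, a ratio of 1.33 (1.30 to 1.35). The counting interval lay above equality for 8 of the 9 genes and below it for PMVK. Among the 6776 loci with a mean CPM within the range of the 9 genes, 41.3% had an interval above equality and 35.5% had one below it. An interval that excludes equality was therefore common at these depths.

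**Figure D1:**
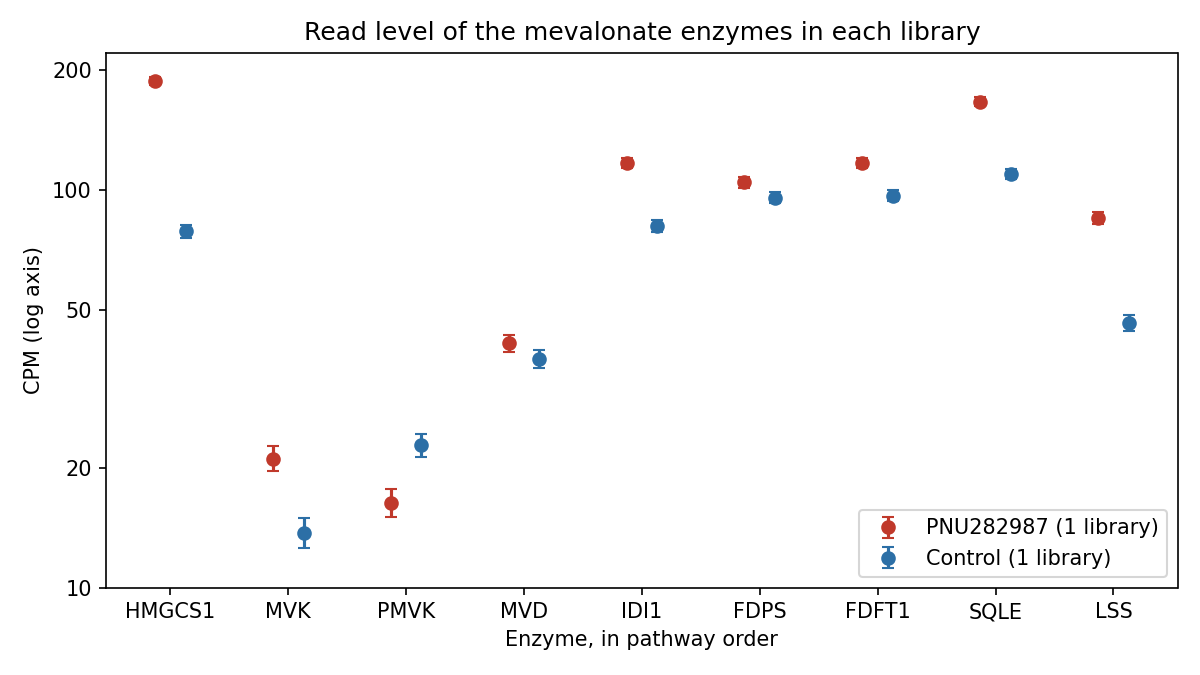
Level of each enzyme in CPM on a log axis, in pathway order, with the PNU282987 library in red left of the Control library in blue; points are single libraries and bars are exact Poisson intervals. HMGCS1 stood at 188 CPM in PNU282987 and 78.6 CPM in Control, and PMVK alone lay lower in PNU282987.

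By size, HMGCS1 was the only one of the 9 that was at least 2-fold higher in PNU282987 with an interval above equality, and none was 2-fold lower. Of all 14269 loci whose mean reached 1 CPM, 2.96% were called higher and 2.81% lower by the same rule. At 1.5-fold, HMGCS1, LSS, MVK and SQLE were called higher, which is 4 of 9 genes, against 8.77% of all loci. None of the 9 was called lower at 1.5-fold, against 8.66% of all loci. The median log2 ratio of PNU282987 to Control was 0.53 over the 9 genes and -0.0087 over the 14234 of these loci with reads in both libraries. The middle 50% of those loci lay between -0.26 and 0.26.

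**Figure D2:**
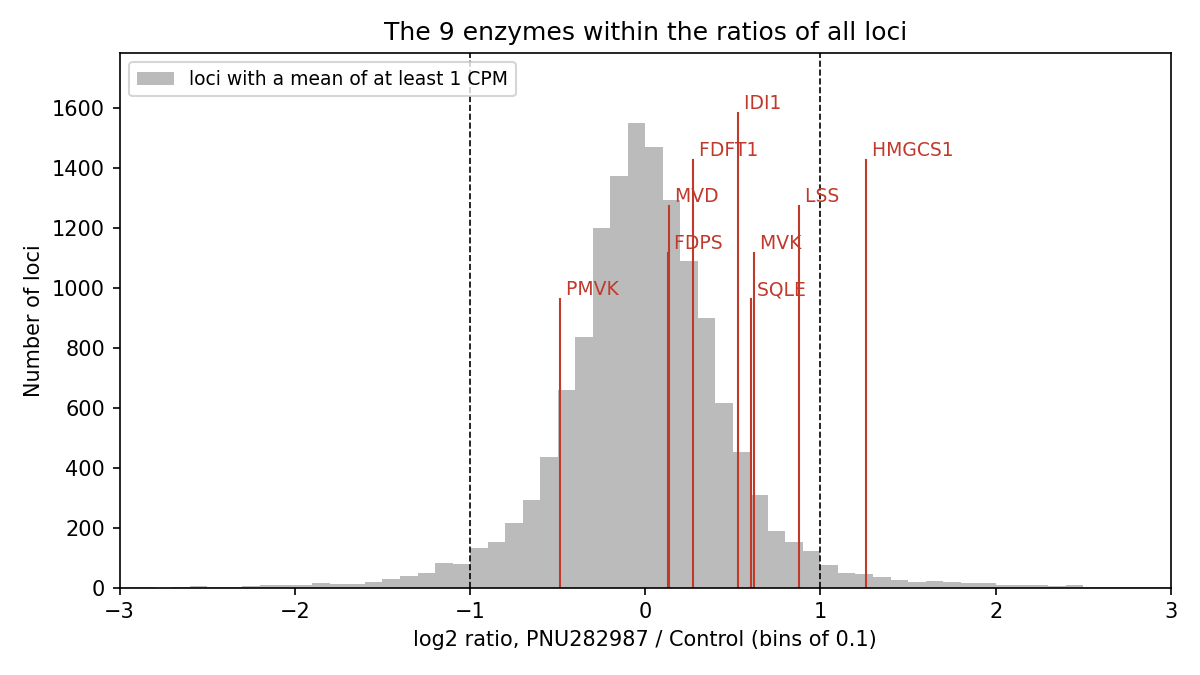
Number of loci per bin of the log2 ratio of PNU282987 to Control, for loci whose mean reached 1 CPM, with the 9 enzymes as red lines and 2-fold limits dashed; loci beyond -3 or 3 are not drawn. The height of a red line carries no value. The enzymes run from -0.48 for PMVK to 1.26 for HMGCS1.

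Promoter windows are shown for the genes at the ends of that range, HMGCS1, with the greatest ratio, and PMVK, with the least, and for LSS and MVK, which were called at 1.5-fold. Each runs from 250 bases before to 50 bases after an annotated start, read 5′ to 3′ on the gene's strand, as RefSeq gives it for GRCh38.p14. Capitals mark letter matches, on either strand, to the CCAAT box (CCAAT, the letters NF-Y binds) and the GC box (GGGCGG, the letters Sp1 binds).

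The HMGCS1 window is chr5:43313363-43313662 (minus strand), the MVK window chr12:109573544-109573843 (plus strand), the PMVK window chr1:154936670-154936969 (minus strand) and the LSS window chr21:46228725-46229024 (minus strand).
HMGCS1: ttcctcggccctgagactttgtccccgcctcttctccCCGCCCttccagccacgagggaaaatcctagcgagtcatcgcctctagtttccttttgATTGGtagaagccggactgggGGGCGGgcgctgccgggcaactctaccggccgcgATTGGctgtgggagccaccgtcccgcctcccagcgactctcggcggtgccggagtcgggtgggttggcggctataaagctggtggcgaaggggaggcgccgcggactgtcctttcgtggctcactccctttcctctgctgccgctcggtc
MVK: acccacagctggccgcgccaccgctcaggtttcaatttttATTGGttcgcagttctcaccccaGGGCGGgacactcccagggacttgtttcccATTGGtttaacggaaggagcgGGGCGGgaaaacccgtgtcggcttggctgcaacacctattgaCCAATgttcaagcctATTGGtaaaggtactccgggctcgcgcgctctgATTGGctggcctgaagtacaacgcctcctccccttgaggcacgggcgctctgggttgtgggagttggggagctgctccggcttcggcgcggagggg
PMVK: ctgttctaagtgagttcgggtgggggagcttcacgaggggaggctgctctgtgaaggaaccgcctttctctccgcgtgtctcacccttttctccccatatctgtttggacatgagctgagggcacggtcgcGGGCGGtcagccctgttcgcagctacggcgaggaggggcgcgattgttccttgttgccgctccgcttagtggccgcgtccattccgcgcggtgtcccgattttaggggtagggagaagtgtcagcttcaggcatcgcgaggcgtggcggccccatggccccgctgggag
LSS: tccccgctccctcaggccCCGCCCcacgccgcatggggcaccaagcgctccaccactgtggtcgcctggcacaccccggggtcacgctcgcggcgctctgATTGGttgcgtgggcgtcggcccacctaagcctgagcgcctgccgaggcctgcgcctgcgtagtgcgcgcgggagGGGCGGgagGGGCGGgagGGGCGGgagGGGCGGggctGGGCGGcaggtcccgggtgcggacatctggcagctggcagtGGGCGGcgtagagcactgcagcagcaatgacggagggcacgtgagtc

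HMGCS1 showed 2 CCAAT boxes and 2 GC boxes in this window. The MVK window held 5 CCAAT boxes and 2 GC boxes. LSS carried 1 CCAAT box and 7 GC boxes. The PMVK window held 1 GC box and no CCAAT box. Windows were at hand for 7 of the 9 genes, 10 windows in all because HMGCS1 has 2 and IDI1 has 3. At least 1 CCAAT box lay in 7 of the 10 windows and in 6 of the 7 genes, PMVK being the exception, while 34.6% of all 35116 promoter windows of this length hold one. HMGCS1 window 2 and IDI1 window 1 also held no CCAAT box, and PMVK has only 1 window. The start in that window is at 154936719, while the PMVK locus, on the minus strand, runs to 154942658. The bases around that outer end were not searched. A GC box lay in 10 of the 10 windows, against 45.0% of all windows. The 10 windows had 60.7% to 74.7% GC, and the windows they are set beside were not matched for GC content. The core of the sterol regulatory element, searched as CACNCCAC on both strands, was met in 1 of the 10 windows, that of IDI1 window 3 at -115 to -108 from the start, against 5.87% of all windows. The only matches that overlapped were CCAAT boxes of IDI1 window 3 at -132 to -128 and -129 to -125. These are matches of letters, not measured sites, and a window without a match says nothing of binding.

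**Figure D3:**
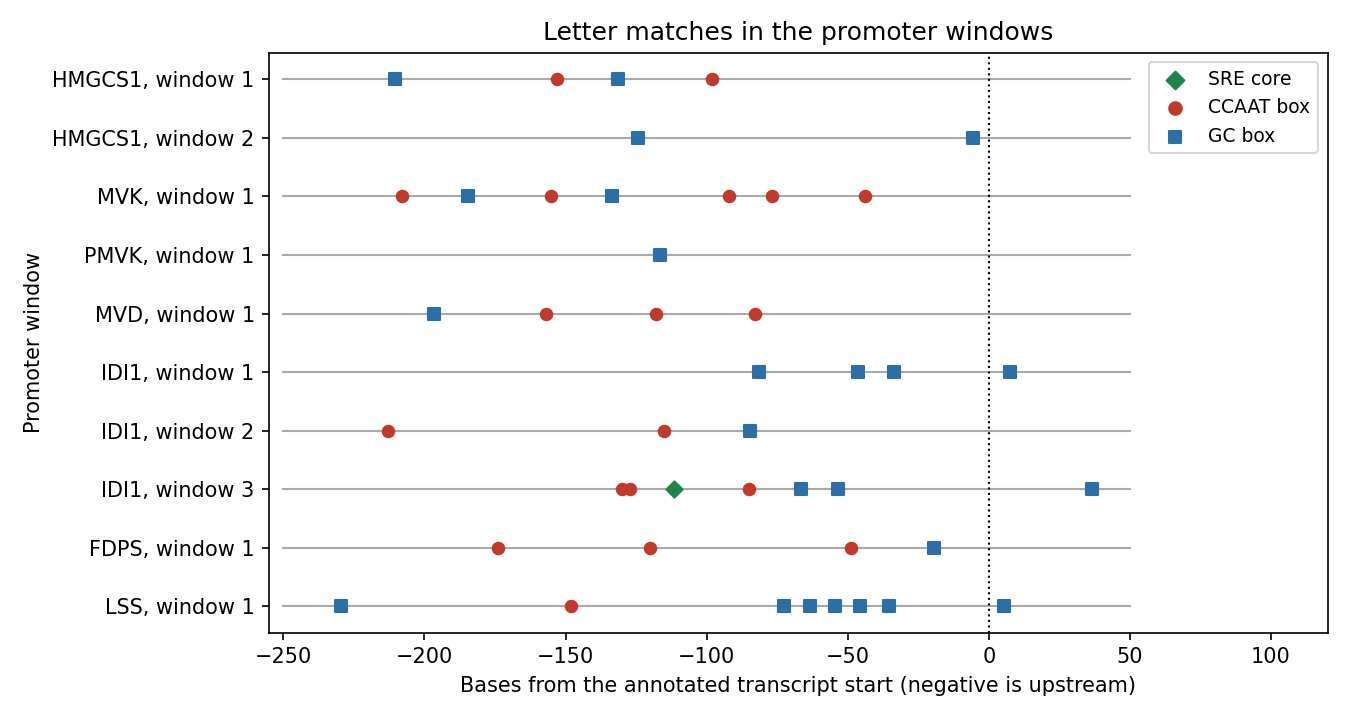
Position of each letter match in the 10 promoter windows, in bases from the annotated start at 0; grey lines are the windows and symbols the CCAAT box, GC box and sterol regulatory element core. The PMVK window has a single GC box and no CCAAT box, and 1 sterol element core appears, in IDI1 window 3.

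HMGCS1 (NCBI gene 3157, chromosome 5, 43287470 to 43313412, GRCh38) makes HMG-CoA from acetoacetyl-CoA and acetyl-CoA. It had 6863 reads in PNU282987 and 3064 reads in Control. The level was 188 CPM (184 to 193) in PNU282987 and 78.6 CPM (75.9 to 81.5) in Control, a log2 ratio of 1.26 (1.20 to 1.32). That ratio was above those of 98.2% of the loci with at least 1 CPM, and its whole interval lay beyond 2-fold. Its share of the reads of the 9 genes was 22% in PNU282987 and 13.5% in Control. No other annotated locus overlaps HMGCS1.

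The enzymes from mevalonate to isopentenyl diphosphate had the fewest reads and did not share a direction. Their summed level was 78.5 CPM (75.7 to 81.5) in PNU282987 and 74.0 CPM (71.3 to 76.8) in Control, a ratio of 1.06 (1.01 to 1.12). MVK, mevalonate kinase (gene 4598, chromosome 12, 109573272 to 109598125), had 769 reads in PNU282987 and 535 in Control. Its level was 21.1 CPM (19.6 to 22.6) in PNU282987 and 13.7 CPM (12.6 to 14.9) in Control. Its log2 ratio was 0.62 (0.46 to 0.78). PMVK, phosphomevalonate kinase (gene 10654, chromosome 1, 154924740 to 154942658), had 594 reads in PNU282987 and 888 in Control. At 16.3 CPM (15 to 17.7) in PNU282987 and 22.8 CPM (21.3 to 24.3) in Control it was 1.40-fold lower in PNU282987, a log2 ratio of -0.48 (-0.64 to -0.33). MVD, the decarboxylase that yields isopentenyl diphosphate (gene 4597, chromosome 16, 88651940 to 88663091), had 1500 reads in PNU282987 and 1461 in Control. At 41.1 CPM in PNU282987 and 37.5 CPM in Control, its log2 ratio of 0.13 (0.03 to 0.24) was near that of FDPS and close to equality.

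MVK and PMVK act on consecutive intermediates, yet their ratios lay on opposite sides of 1. MVK was higher and PMVK lower in PNU282987. The difference between their log2 ratios was 1.10 (0.88 to 1.32), and it does not depend on how the libraries were scaled. MVK faces MMAB, which encodes an enzyme of vitamin B12 metabolism and starts 290 bases away on the opposite strand. MMAB had 918 reads in PNU282987 and 804 in Control, a log2 ratio of 0.29 (0.15 to 0.43), below that of MVK. The MMAB and MVK loci overlap by 233 bases, and with MMAB reads added the log2 ratio of MVK was 0.43, under the 1.5-fold limit of 0.58.

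IDI1 and FDPS turn isopentenyl diphosphate into farnesyl diphosphate. Their summed level was 221 CPM (217 to 226) in PNU282987 and 177 CPM (173 to 181) in Control, a ratio of 1.25 (1.21 to 1.29). IDI1, which interconverts isopentenyl and dimethylallyl diphosphate (gene 3422, chromosome 10, 1039152 to 1056704), had 4257 reads in PNU282987 and 3158 in Control. This was 117 CPM in PNU282987 and 81.0 CPM in Control, a log2 ratio of 0.53 (0.46 to 0.59). IDI2, its neighbouring copy, had 0 reads in PNU282987 and 0 in Control. FDPS, farnesyl diphosphate synthase, the target of nitrogen-containing bisphosphonate drugs (gene 2224, chromosome 1, 155308866 to 155320665), had 3812 reads in PNU282987 and 3729 in Control. Its levels of 105 CPM (101 to 108) in PNU282987 and 95.7 CPM (92.6 to 98.8) in Control gave a log2 ratio of 0.13 (0.06 to 0.19). FDPS has 10 named pseudogenes in the table, which together held 1 read in PNU282987 and 8 in Control, so few counted reads were assigned to them. The treatment of reads that map to more than 1 locus is not given, so whether FDPS lost reads in that way was not tested.

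The sterol-committed enzymes held the most reads of the arm and were higher in PNU282987 in order along the path. Their summed level was 368 CPM (362 to 375) in PNU282987 and 252 CPM (248 to 258) in Control, a ratio of 1.46 (1.42 to 1.5). FDFT1, squalene synthase (gene 2222, chromosome 8, 11795582 to 11839298), had 4256 reads in PNU282987 and 3764 in Control. Its level was 117 CPM (113 to 120) in PNU282987 and 96.6 CPM (93.5 to 99.7) in Control, a log2 ratio of 0.27 (0.21 to 0.34). SQLE, squalene epoxidase, an oxygen-dependent control point of the path (gene 6713, chromosome 8, 124998505 to 125022283), had 6071 reads in PNU282987 and 4268 in Control. Its level was 167 CPM (162 to 171) in PNU282987 and 110 CPM (106 to 113) in Control, a log2 ratio of 0.60 (0.55 to 0.66). LSS, which folds the squalene epoxide into lanosterol (gene 4047, chromosome 21, 46188446 to 46228774), had 3104 reads in PNU282987 and 1807 in Control. At 85.1 CPM (82.2 to 88.2) in PNU282987 and 46.4 CPM (44.3 to 48.6) in Control it was 1.84-fold higher in PNU282987, a log2 ratio of 0.88 (0.79 to 0.96).

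The value of LSS depended on a small locus inside it. SNORD159, a small nucleolar RNA of 70 bases (chromosome 21, 46194090 to 46194159), lies in an intron, with 0 bases in the GENCODE 29 exons of LSS. It was listed with 1132 reads in PNU282987 and 2109 in Control, a log2 ratio of -0.80, opposite to that of LSS. With these reads added, LSS had 4236 reads in PNU282987 and 3916 in Control, a log2 ratio of 0.21 (0.15 to 0.27), and was no longer called at 1.5-fold. Whether reads of LSS were assigned to SNORD159 was not tested. With reads of WDR37 and IDI2-AS1 added, IDI1 had a log2 ratio of 0.35. WDR37, on the opposite strand, overlaps the first 320 bases of IDI1, with 0 bases in the GENCODE 29 exons of IDI1. Over its whole length WDR37 had 2812 reads in PNU282987 and 2785 in Control, and all of these were added. IDI2-AS1 had 11 reads in PNU282987 and 0 in Control. FDPS was at 0.12 with RUSC1-AS1 added and FDFT1 at 0.28 with LOC105379243 added.

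**Figure D4:**
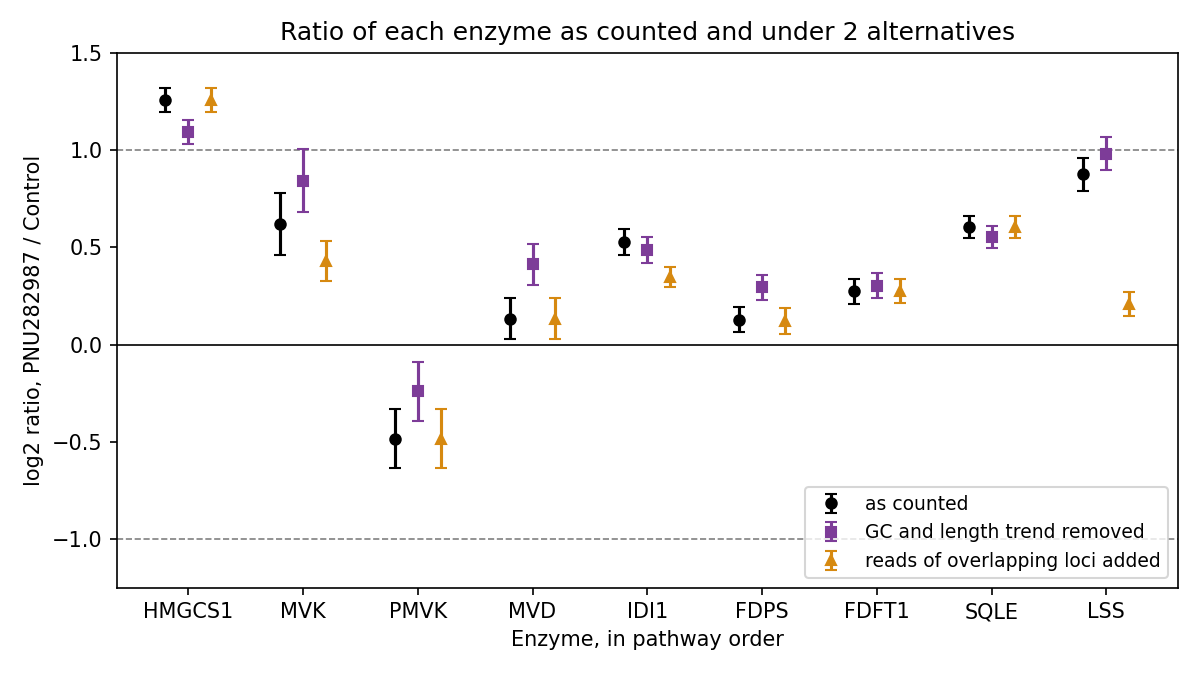
Log2 ratio of PNU282987 to Control for each enzyme in pathway order, as counted (black circles), with the trend over GC content and transcript length removed (purple squares), and with reads of overlapping loci added (orange triangles); bars are counting intervals and dashed lines mark 2-fold. HMGCS1 lay beyond 2-fold in all 3, PMVK below equality in all 3, and LSS ranged from 0.21 to 0.98. HMGCS1, PMVK, MVD and SQLE have no overlapping locus, so their triangles repeat the circles.

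The ratios of the 9 genes differed among themselves beyond counting error. The interval of the difference between log2 ratios excluded 0 for 32 of the 36 pairs and for 8 of the 8 pairs of neighbours in the list. The share for pairs of other loci was not computed. Of single loci at these levels, 41.3% had an interval above equality and 35.5% one below it, which is a different measure from a difference within a pair. Whether such counts of pairs are particular to the arm was not tested. The 4 pairs whose interval included 0 were MVK with IDI1, MVK with SQLE, IDI1 with SQLE, and MVD with FDPS. MVD and FDPS differed by 0.0062 (-0.12 to 0.13). Going down the list, HMGCS1 exceeded MVK by 0.64 (0.47 to 0.81), MVD exceeded PMVK by 0.62, since PMVK minus MVD was -0.62 (-0.80 to -0.44), and IDI1 exceeded FDPS by 0.40 (0.31 to 0.49). From FDPS on, each step had a higher ratio than the one before, with FDFT1 minus SQLE at -0.33 (-0.42 to -0.25) and SQLE minus LSS at -0.27 (-0.37 to -0.17). The last of these orders does not hold with SNORD159 added to LSS. Other steps shrank with the GC and length trend removed. FDPS was then at 0.29 (0.23 to 0.36) and FDFT1 at 0.30 (0.24 to 0.37), so the rise between them was not kept. MVD was then at 0.41 and IDI1 at 0.48, closer than as counted, and MVD lay further from FDPS.

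Removing a trend of the log2 ratio over GC content and transcript length changed the spread but no direction. HMGCS1, with 40.1% GC, was then at 1.10 (1.03 to 1.16), still beyond 2-fold. The GC-rich members were higher than as counted, with MVK at 0.84 (0.68 to 1.0), MVD at 0.41 (0.31 to 0.52) and LSS at 0.98 (0.90 to 1.07). PMVK was at -0.24 (-0.39 to -0.088). SQLE was at 0.55 (0.50 to 0.61), just under the 1.5-fold limit.

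Compared per kilobase of transcript, so that genes of different length can be set side by side, the levels were ordered much alike in both libraries. FDPS was the most abundant, at 77.8 CPM per kilobase in PNU282987 and 71.2 in Control, followed by IDI1 at 69.4 in PNU282987 and 48.1 in Control. FDFT1 stood at 58.0 in PNU282987 and 48.0 in Control, and SQLE at 56.2 in PNU282987 and 37.0 in Control. HMGCS1 had the fifth place in both libraries, with 54.0 in PNU282987 and 22.6 in Control. In PNU282987 the counting intervals of FDFT1 and SQLE overlapped, as did those of SQLE and HMGCS1, so these neighbours cannot be ordered there. In Control HMGCS1 stood clearly below SQLE, and only IDI1 and FDFT1 had overlapping intervals.

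At the low end, LSS had 23.1 CPM per kilobase in PNU282987 and 12.6 in Control, and MVD 22.6 in PNU282987 and 20.6 in Control. PMVK had 12.7 in PNU282987 and 17.8 in Control. MVK had 11.3 in PNU282987 and 7.37 in Control, the lowest value in both, with an interval that overlapped that of PMVK in PNU282987. LSS was thus level with MVD in PNU282987 and below both MVD and PMVK in Control. The lengths are medians over annotated transcripts, so these levels shift if a gene uses a shorter or longer transcript.

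The genes around the arm were read from lists chosen by function. For comparison, 2.96% of all loci with at least 1 CPM were called 2-fold higher and 2.81% lower. The median log2 ratio over such loci with reads in both libraries was -0.0087. Upstream, none of 3 genes of acetyl-CoA supply and its first condensation was called at 2-fold, with a median log2 ratio of 0.30. ACLY, ATP citrate lyase, had 199 CPM in PNU282987 and 162 CPM in Control, and ACSS2, acetyl-CoA synthetase, 44.9 CPM in PNU282987 and 46.5 CPM in Control. Downstream, 10 of 12 enzymes after lanosterol had a ratio above 1, with a median of 0.44. Of the 12, 1 was called 2-fold higher and 1 lower. TM7SF2, a sterol reductase whose reaction LBR also performs, was the only one called 2-fold lower, on 29 reads in PNU282987 and 84 in Control.

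Among 15 genes of sterol sensing and SREBP processing, 12 had a ratio above 1, and the median was 0.21. Of the 15, 2 were called higher and 0 lower, against 2.96% and 2.81% of all loci. STARD4, a sterol carrier, had a log2 ratio of 1.63 (1.51 to 1.74) and INSIG1, which retains the SREBP complex in the endoplasmic reticulum, one of 1.27 (1.22 to 1.33). Another list held 10 genes taken as targets of SREBP and called lipogenic here, though not all are enzymes of fatty acid synthesis. Of these 10, 9 had a ratio above 1, with a median of 0.55. ELOVL6, a fatty acid elongase, was the only one called, on 290 reads in PNU282987 and 116 in Control. The exception was FABP5, a fatty acid carrier, at 510 CPM in PNU282987 and 864 CPM in Control. Of 9 measured genes of sterol efflux and esterification, 7 had a ratio below 1, and the median was -0.55. SOAT1, which esterifies cholesterol, was called higher, at 196 CPM in PNU282987 and 78.8 CPM in Control. ABCG1, a sterol exporter, was called lower, at 29.2 CPM in PNU282987 and 81.4 CPM in Control, as was CYP27A1, a sterol hydroxylase, at 26.4 CPM in PNU282987 and 62.7 CPM in Control. After removal of the GC and length trend the median was 0.48 for the mevalonate enzymes, 0.27 for acetyl-CoA supply, 0.53 for the enzymes after lanosterol, 0.07 for sterol sensing, 0.38 for lipogenic genes and -0.33 for efflux. It was 0.11 for the branches described next, and -0.06 for the macrophage markers, whose median as counted was -0.29.

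**Figure D5:**
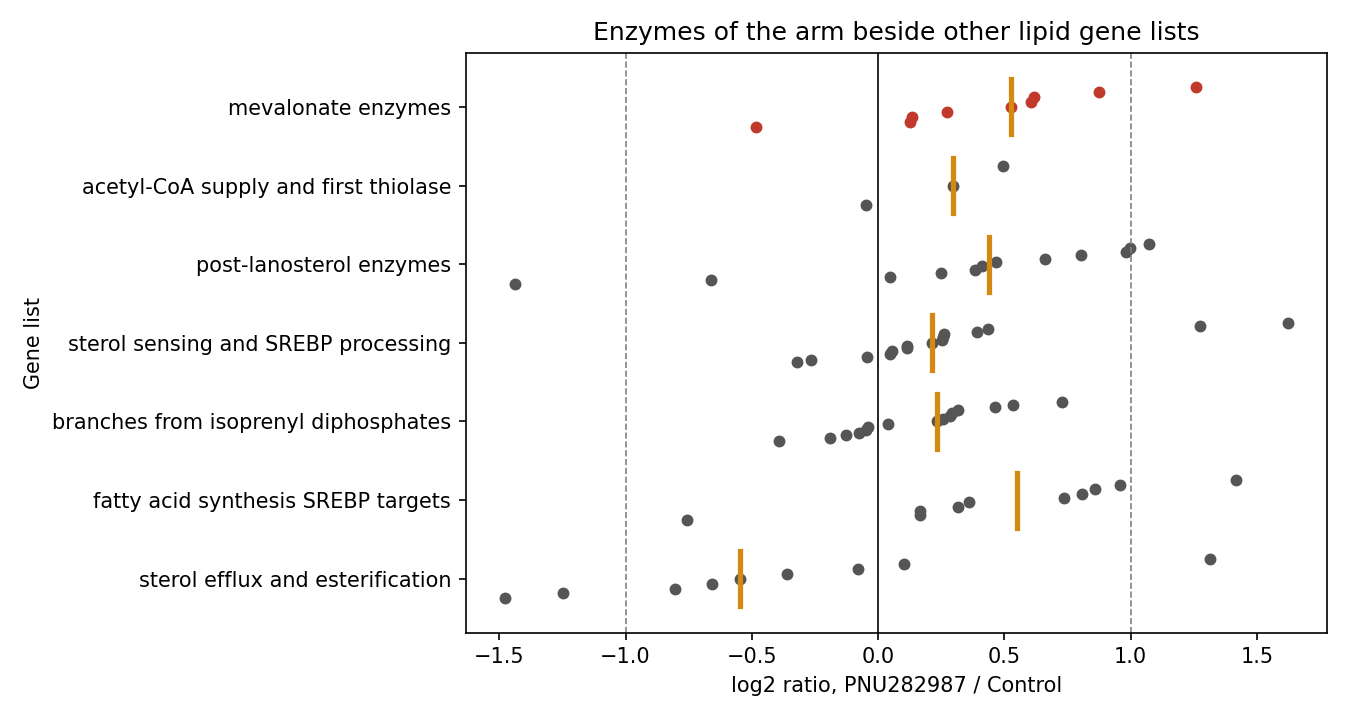
Log2 ratio of PNU282987 to Control of each gene whose mean reached 1 CPM in 7 lists, 1 point per gene, with the list's median as an orange bar and 2-fold limits dashed; vertical offsets within a list only separate points. The medians run from 0.55 for the lipogenic genes, with the mevalonate enzymes next at 0.53, to -0.55 for sterol efflux and esterification, and are shown with no test.

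Other branches draw on the same isoprenyl diphosphates. Of 15 genes of prenylation, dolichol and ubiquinone side chain synthesis, none was called at 2-fold, where 2.96% of all loci were called higher and 2.81% lower, and the median log2 ratio was 0.24, with 9 above and 6 below a ratio of 1. ICMT, which methylates prenylated proteins, had 92.3 CPM in PNU282987 and 89.8 CPM in Control, and DHDDS, a subunit of the dolichol-forming transferase, 86.4 CPM in PNU282987 and 90.9 CPM in Control. GGPS1, which extends farnesyl to geranylgeranyl diphosphate, had 22.6 CPM in PNU282987 and 25.7 CPM in Control, a log2 ratio of -0.19 (-0.32 to -0.055). ACAT1, the mitochondrial thiolase, was lower in PNU282987 within 2-fold, at 30.3 CPM in PNU282987 and 36.3 CPM in Control.

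Markers of other cells were present, with ratios on both sides of 1. The median log2 ratio was 0.14 for mesenchymal, 0.15 for hepatocyte and 0.05 for endothelial markers. These medians lay between -0.26 and 0.26, the quartiles of loci with at least 1 CPM and reads in both libraries. With 1 library per group, whether such markers vary together with the arm was not tested. Mesenchymal markers summed to 3039 CPM in PNU282987 and 2688 CPM in Control, with 6 of 7 above a ratio of 1, none called at 2-fold, and COL3A1 at 1349 CPM in PNU282987 and 1163 CPM in Control. Hepatocyte markers summed to 132 CPM in PNU282987 and 148 CPM in Control, with SERPINA1 the most abundant, and 5 of the 6 with at least 1 CPM above a ratio of 1. ALB had 19 reads in PNU282987 and 0 in Control. Endothelial markers summed to 106 CPM in PNU282987 and 152 CPM in Control, mostly PECAM1, which macrophages also express, and 2 of the 4 with at least 1 CPM were above a ratio of 1. Pluripotent markers summed to 10.5 CPM in PNU282987 and 8.72 CPM in Control, chiefly PODXL, with POU5F1 at 0 reads in both. The part of such cells in the values of the arm was not tested.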

How the data were processed

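The libraries are stranded and from mRNA, per the labels' protocols. The deposited table gives raw read counts per locus, with no normalization, per the file headers. HISAT2 2.1.0 and StringTie 2.1.3b, with trimming by Trimmomatic 0.38, quality control by FastQC 0.11.7, and edgeR, are named for build GRCh38, per the submitters' processing notes. How mates, multi-mapping reads and strand were treated in counting is not given in the sources used here, so overlapping loci are uncertain. Of the 46865 loci, 578 were assembled and 44560 had a RefSeq position; positions count from 1.

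Library totals were multiplied by TMM factors (R 4.3.3, edgeR 4.0.16), 1.01 for PNU282987 and 0.991 for Control, and CPM were computed on the scaled totals. A locus was called when its ratio was at least 2-fold, the exact 95% Clopper-Pearson interval of the ratio excluded equality and its mean was at least 1 CPM. Levels have exact Poisson intervals, and differences between log2 ratios have Woolf intervals of the odds ratio; all cover counting error only. The calling step was tested on simulated counts. Alternatives were other scalings (DESeq2 1.42.0 size factors among them), filters, thresholds, thinning, halved counts, overlapping loci and a polynomial trend of degree 3 over GC content and median transcript length (GENCODE 29, known for 92.5% of the loci compared).

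The members and lists were chosen with earlier results of these data known. Named beside the members were list genes called at 2-fold, otherwise the 2 most abundant per list, and the related genes IDI2 and GGPS1; neighbouring and overlapping loci were named by position, and LBR, FABP5, ALB and POU5F1 after their values were seen. Promoter windows come from RefSeq. Some genes that this rule would name are not reported here. Other steps ran in SciPy 1.17.1, pandas 2.3.3 and numpy 2.4.6 under Python 3.11.15, and figures in matplotlib 3.10.9.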

Additional observations from a re-analysis of the deposited data

How the results depend on the processing

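Every one of the 9 enzymes kept its direction under all alternatives run. Halved counts, filters and thresholds could not change a direction, since they leave the ratio of a gene as it is. Adding overlapping loci could not change the ratios of HMGCS1, PMVK, MVD and SQLE, which have none. HMGCS1 was the only enzyme called at 2-fold under each other scaling, filter, thinning, halved counts, added overlapping loci and removal of the GC and length trend. At a threshold of 4-fold 0 enzymes were called, with 106 loci higher and 60 lower; at 1.5-fold 4 enzymes were called, with 1252 loci higher and 1235 lower. Over all loci, 423 were called higher and 401 lower as reported, 181 and 141 with a mean of at least 10 CPM, 950 and 879 with 10 or more reads summed over the libraries in place of the CPM filter, and 260 and 193 with the whole interval beyond 2-fold. The median log2 ratio of the 9 enzymes was 0.28 with overlapping loci added, a value set by the reads of those loci, and otherwise between 0.48 and 0.55. Had each fragment been counted as 2 reads, the interval of MVD would have included equality (-0.015 to 0.28), while those of the other 8 would not. Loci with 2 reads outnumbered those with 1 read, 979 to 817 in PNU282987 and 958 to 818 in Control. With 1 library per group, no library could be left out. No paired analysis was possible because each group has 1 library and the comparison comes from no test.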

Other observations

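Among the genes that use isoprenyl diphosphates, the following were chosen after a look at their values, and no theme was tested. PDSS1, a subunit of the polyprenyl diphosphate synthase of ubiquinone, had 15.1 CPM in PNU282987 and 9.14 CPM in Control, a log2 ratio of 0.73 (0.53 to 0.93). COQ2, which attaches that chain to the ring, had 26.3 CPM in PNU282987 and 18.1 CPM in Control, a log2 ratio of 0.53 (0.39 to 0.68), and PDSS2, the other subunit, one of 0.29 (0.13 to 0.45). NUS1, a subunit of the dolichol-forming transferase, had a log2 ratio of 0.46 (0.39 to 0.53), while DHDDS, its partner, had one of -0.07.

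The cytosolic thiolase ACAT2, which makes acetoacetyl-CoA for the arm, had 43.7 CPM in PNU282987 and 31.0 CPM in Control, a log2 ratio of 0.50 (0.39 to 0.60). The mitochondrial thiolase ACAT1 had one of -0.26 (-0.38 to -0.15).

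Besides MVK with MMAB, 3 enzymes have a start on the opposite strand nearby. WDR37, 319 bases from the first start of IDI1, had a log2 ratio of 0.11 (0.03 to 0.19). SNAI3-AS1, 282 bases from the start of MVD, had 238 reads in PNU282987 and 248 in Control. MCM3AP-AS1, 457 bases from the start of LSS, had 18 reads in PNU282987 and 5 in Control.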
